A study of Xenopus laevis with 54 samples.

Results

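The genes described are those of the proteasome, chosen by name: every row of the table whose symbol begins with psm, a letter from a to g and a digit, which gave 85 of 50489 genes. They stand for 49 symbols, since the allotetraploid Xenopus laevis often keeps 2 copies of a gene, named L and S, and both were present for 36 symbols. By role they were 14 genes of the alpha ring and 13 of the beta ring of the 20S core, 3 inducible or tissue-restricted beta subunits, 12 ATPases and 21 non-ATPase subunits of the 19S regulatory particle, 5 chaperones of 19S assembly, 6 chaperones of 20S assembly, and 7 activators or inhibitors of the core. The remaining 4 were the psmb7.2 genes, listed at or near 0 throughout, and psmc3ip.L and psme3ip1.S, which share the name prefix but encode no proteasome protein. Their products bind one, and they were counted apart.

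The study sampled RNA of wildtype Xenopus laevis embryos every hour from 5 to 9 hours post fertilization (hpf), which covers the blastula and the onset of transcription from its genome. At the 1-cell stage every embryo was injected with 5-ethynyl uridine (EU), which new RNA takes up in place of uridine: 10 nl at 50 mM, for about 0.5 mM inside, with growth at 22 °C. RNA was taken as total RNA, as the bead fraction captured through its EU, or as the flowthrough fraction that was not captured. Flowthrough and bead RNA had 4 libraries at each time, total RNA had 4 at 5 hpf but 2 at later hours, and unfertilized eggs without EU had 2. Replicates 1 and 2 came from experiment 1. Embryo replicates 3 and 4 and both eggs came from experiment 2, and total RNA of its embryos was taken at 5 hpf alone. The design text gives the replicates as clutches. Each library holds whole embryos, so fewer cells of a type and less RNA per cell cannot be told apart.

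The proteasome degrades proteins that carry ubiquitin. Its 20S core is a barrel of alpha and beta rings whose inner beta rings hold the cutting sites, and the 19S regulatory particle on its ends recognizes ubiquitin and unfolds the substrate with a ring of ATPases. Dedicated chaperones build both parts and leave the finished particle. The roles given here are known from yeast and mammals. An egg carries a supply of both the protein and its messages, and the embryo uses the proteasome in every division to remove cyclins.

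Marker sums followed the labels in part. The summed value of 44 zygotic genes of the blastula was 703 to 1098 in bead RNA at 5 hpf and 79077 to 114237 at 9 hpf. In flowthrough at 9 hpf it was 1158 to 1671. At 5 hpf total RNA had 716 to 1107, so the beads showed no excess then, and eggs had 1052 to 1699. The sum of 26 egg and maternal messages was 28288 to 29596 in eggs, which overlapped 24624 to 29145 in total RNA at 5 hpf. Bead RNA at 5 hpf still held 16529 to 23121 of these messages. Of 14 blood markers 3 were above 0 in total RNA at 5 hpf, with sums of 125 to 135, and of 17 ovarian follicle markers 6 were, with sums of 381 to 451. Bead libraries of experiment 2 stood apart. Between 12814 and 18990 genes were above 0 in them, while bead libraries of experiment 1 had 23212 to 28348, and the counts and medians of bead RNA below are given within the experiments as well. Summed over all genes, bead values came to 8175480 to 15200969 in experiment 2 and 7376513 to 8806052 in experiment 1.

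Most proteasome messages in flowthrough RNA, the fraction that holds the uncaptured maternal supply, stayed within 2-fold between 5 and 9 hpf. So did most of all genes tested, and smaller numbers of proteasome messages were called lower or higher. Of the 85 genes 77 passed the filter on low values. The other 8 were psmb11.L and psmg3.S, listed at 0 in all 54 libraries, the 2 psmb7.2 genes, and psmb8.L, psmb9.S, psme2.L and psmg4.L, none of which exceeded 8 in flowthrough. Of the 77 tested, 14 were called lower and 7 higher at 9 hpf (limma, adjusted p under 0.05), while 12.9% of all 19277 genes tested were called lower and 6.32% higher. For 54 of the 77 the 95% interval of the change lay within 2-fold either way, as it did for 66.4% of all genes. The median change was -0.20 on the log2 scale against -0.04 over all genes tested. Under quantile normalization both moved up, to -0.03 and 0.07, with 12 called higher and 11 lower, and under median centring 12 were higher and 14 lower. A fit of only the 2 times compared called 12 in all. Counts over all genes under these settings are not given here, so the member counts cannot be set against them. With the clutch as a term in the fit 24 were lower and 12 higher, as were 4023 and 2597 of all genes.

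The 20S core and the 19S particle had similar numbers of calls, while the core had the lower median and a smaller share of intervals within 2-fold. Of 27 alpha and beta ring genes 5 were called lower and 2 higher, 19 had an interval within 2-fold, and the median change was -0.23. Of 33 genes of the 19S particle 5 were called lower and 3 higher, 27 had an interval within 2-fold, and the median was -0.03. The median stood at -0.28 for the 12 ATPases, of which 4 were called lower, and at -0.00 for the 21 non-ATPase subunits, of which 1 was. The 4 tested chaperones of 20S assembly all lay below 0, with a median of -1.84 and 2 called lower. Calls of at least 2-fold were 6 in all, all lower, and were psma6.S of the alpha ring, psmb3.L of the beta ring, the ATPase psmc2.S, the chaperones psmg1.L and psmg3.L, and psmc3ip.L. Over all genes 3.94% were called and at least 2-fold lower. The difference between the particles was described and not tested. Of all genes 66.4% had an interval within 2-fold. In flowthrough at 5 hpf the 27 core genes summed to 3358 to 3979, and the 33 genes of the 19S particle to 9330 to 10075. The width of an interval depends on a gene's spread, and the part of level in these shares was not tested. These counts are those of the main fit, and the calls made with the clutch as a term are not split by role here.

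**Figure D1:**
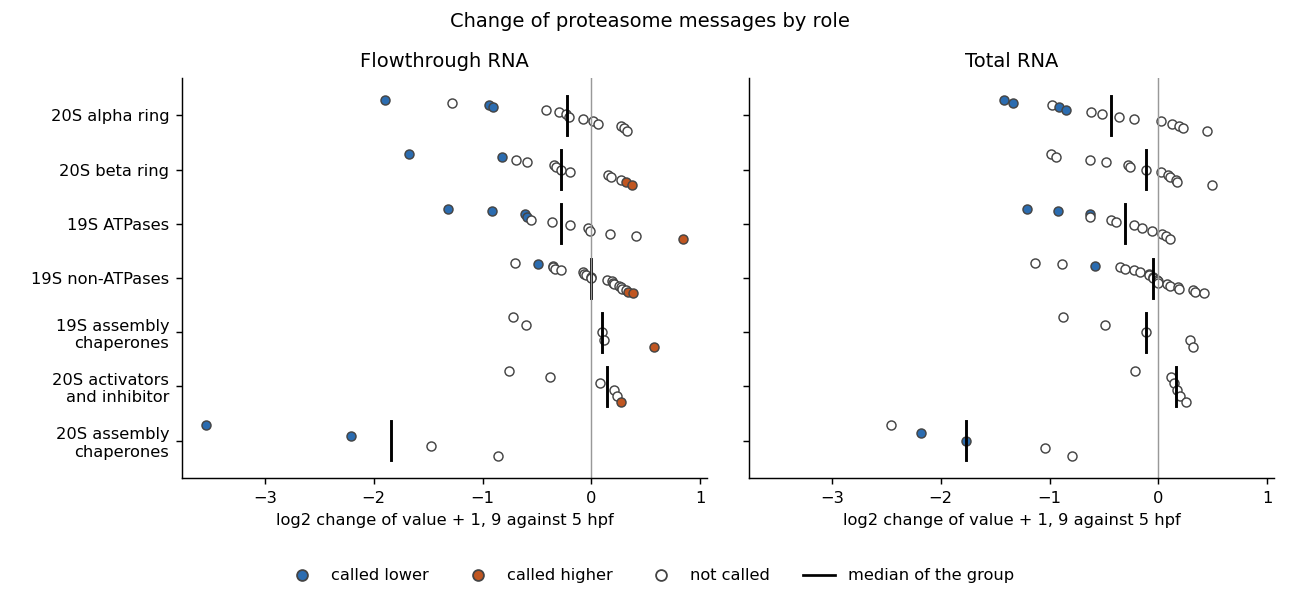
Log2 change of value + 1 from 5 to 9 hpf in flowthrough (left) and total RNA (right), 1 point per tested gene, grouped by role, with the group's median as a black line. Colour marks the genes called at an adjusted p under 0.05 in limma: blue lower, orange higher, white not called. The 20S assembly chaperones lie lowest in both panels, with medians of -1.84 and -1.77, while the 19S non-ATPases centre near 0.

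Both copies of psmc2, an ATPase of the 19S ring, fell. The S copy was at 161, 208, 223 and 195 at 5 hpf and at 47, 111, 81 and 86 at 9 hpf, which is -1.32 ± 0.22 on the log2 scale (SE, adjusted p = 0.000238). The L copy was at 112, 139, 131 and 158 and then at 61, 91, 62 and 73, a change of -0.91 ± 0.21 (adjusted p = 0.00416). In both genes every clutch was lower at 9 hpf and the groups did not overlap. The decline was gradual: psmc2.S was at 175, 157, 152 and 201 at 6 hpf, 122, 171, 105 and 145 at 7 hpf, and 92, 127, 85 and 97 at 8 hpf. The symbol psmc2 was the only one of 33 with both copies tested in which both were called lower. The share over all pairs of the table was not computed.

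Further ATPases fell by less than 2-fold. The message of psmc3.L was at 404, 425, 412 and 436 at 5 hpf and at 269, 260, 285 and 301 at 9 hpf. The groups were far apart relative to their spread, and the change was -0.59 ± 0.09 (SE, adjusted p = 0.000101). That of psmc1.L went from 316, 325, 332 and 338 to 220, 183, 233 and 224 (-0.61 ± 0.12, adjusted p = 0.00152), again without overlap. In the other direction psmc6.L was at 65, 46, 46 and 47 at 5 hpf and at 135, 85, 96 and 63 at 9 hpf (0.84 ± 0.23, adjusted p = 0.0140). It was higher in all 4 clutches, though the groups overlapped by the library at 63.

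Among the non-ATPase subunits most values held. The lid subunit psmd11.L was at 670, 743, 619 and 659 at 5 hpf and at 661, 698, 586 and 626 at 9 hpf. Its change was -0.07 ± 0.08 with a 95% interval of -0.23 to 0.10, so a change of 2-fold lay outside the interval. The lid gene psmd12.S rose from 801, 736, 823 and 732 to 998, 881, 1081 and 1069 (0.38 ± 0.07, adjusted p = 0.000523), with no overlap. The lid gene psmd6.L fell from 621, 654, 532 and 559 to 348, 466, 413 and 459 (-0.49 ± 0.10, adjusted p = 0.00228), also with no overlap. The lid gene psmd8.S was the other non-ATPase gene called higher (0.34 ± 0.09, adjusted p = 0.0156).

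In the core the alpha ring gene psma6.S fell most. It was at 32, 52, 40 and 54 at 5 hpf and at 13, 10, 10 and 11 at 9 hpf (-1.90 ± 0.30, SE, adjusted p = 0.000170). At 7 hpf its libraries were still at 31, 37, 36 and 42, and at 8 hpf they were at 13, 25, 10 and 19, so most of the fall lay between these hours. The alpha ring genes psma1.S (-0.94 ± 0.26) and psma3.L (-0.90 ± 0.24) and the beta ring genes psmb3.L (-1.68 ± 0.54) and psmb7.L (-0.82 ± 0.20), the last encoding a cutting subunit, were also called lower. The beta ring genes psmb1.S (0.31 ± 0.09) and psmb6.L (0.38 ± 0.11), the latter another cutting subunit, were called higher. The abundant beta ring gene psmb4.L went from 375, 471, 436 and 404 to 404, 377, 252 and 328, which overlapped, and was not called (-0.33 ± 0.12, adjusted p = 0.0645, or 0.00800 with the clutch as a term). For psma7.L of the alpha ring the change was 0.27 ± 0.17 (adjusted p = 0.310, or 0.0490 with the clutch as a term).

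The chaperones of 20S assembly act in pairs on the forming alpha ring. Of these psmg1.L was at 26, 34, 26 and 31 at 5 hpf and at 11, 2, 9 and 4 at 9 hpf (-2.21 ± 0.43, SE, adjusted p = 0.00116). The fall was under way at 7 hpf, with 13, 15, 10 and 18. The message of psmg3.L was at 6, 14, 21 and 15 at 5 hpf and at 0, 0, 1 and 0 at 9 hpf, and its fitted change of -3.54 ± 0.69 (adjusted p = 0.00104) depends on the pseudocount at such low values. Its partner psmg4.S was low as well, at 8, 15, 13 and 22 and then at 4, 12, 0 and 11 (-1.47 ± 0.67, adjusted p = 0.144, or 0.0404 with the clutch as a term), and psmg2.L changed by -0.85 ± 0.44 (adjusted p = 0.203, or 0.0402 with that term). The alpha ring gene psma3.S, also low, changed by -1.28 ± 0.45 (adjusted p = 0.0545, or 0.0145 with that term).

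Of 5 chaperones of 19S assembly and 6 activators or inhibitors tested, 1 of each was called higher and none lower, with 5 at an unadjusted p under 0.05 and an interval within 2-fold for 3 and 4 of them. Over all genes 5835 of 19277 had an unadjusted p under 0.05. The chaperone gene psmd9.S went from 45, 54, 41 and 57 to 23, 36, 27 and 46, lower in all 4 clutches with overlapping groups (-0.60 ± 0.24, adjusted p = 0.0955), and psmd9.L changed by -0.72 ± 0.45. The gene psmf1.L, which encodes an inhibitor of the core, changed by -0.75 ± 0.30 (adjusted p = 0.0939). The chaperone gene psmd10.S was at 196, 179, 152 and 199 and then at 177, 236, 189 and 188 (0.12 ± 0.14, adjusted p = 0.642), and its L copy was called higher (0.58 ± 0.19, adjusted p = 0.0395). The gene psme3 encodes an activator of the core found in the nucleus. Its S copy was at 1324, 1166, 1254 and 1101 and then at 1456, 1289, 1563 and 1293 (0.21 ± 0.09, adjusted p = 0.124, 0.0331 under median centring and 0.00147 with the clutch as a term), and its L copy was called higher (0.27 ± 0.08, adjusted p = 0.0276). The 2 genes that only share the prefix both fell: psme3ip1.S, whose product binds the psme3 protein, from 549, 694, 597 and 649 to 344, 453, 374 and 492 (-0.59 ± 0.11, adjusted p = 0.000533), and the meiotic recombination gene psmc3ip.L by a fitted -2.22 ± 0.58 (adjusted p = 0.0103) from 9, 15, 9 and 13 to 1, 5, 1 and 1.

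Within a single experiment, with 2 clutches per time, only 2 of these calls were made in each. They included psmc3.L in experiment 1 and were psma6.S and psmc2.S in experiment 2. Counts over all genes in these single-experiment fits are not given here. The 10 genes with the smallest adjusted p kept their direction in both experiments, as psmg1.L did with -2.36 and -2.06.

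**Figure D2:**
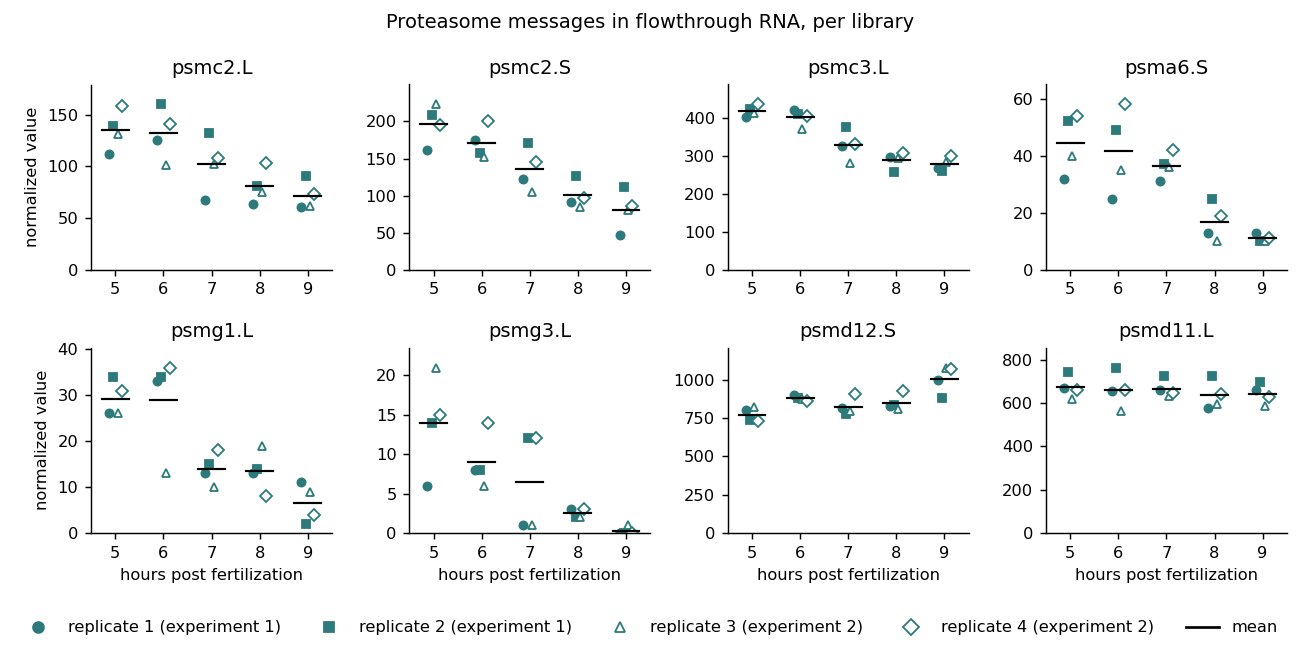
Normalized value of 8 proteasome genes in flowthrough RNA at 5 to 9 hpf, 1 point per library, with the marker giving the clutch, filled markers for experiment 1, open markers for experiment 2 and a line at the mean of 4. The panels of psmc2, psmc3.L, psma6.S, psmg1.L and psmg3.L descend, that of psmd12.S ends at 881 to 1081, and that of psmd11.L stays level.

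The L and S copies of a symbol did not always change alike. Of 33 symbols with both copies tested in flowthrough, 15 had both copies below 0, 8 had both above and 10 had opposite signs. These counts include changes near 0 and were not set against those over all pairs of the table. The ratio of the L to the S copy changed for 7 symbols, 4 toward L and 3 toward S, when fitted over all 4807 such pairs of the table, of which 3.72% were called toward L and 3.2% toward S. A fit of only the 2 times compared called 2 of the 33. Reads of near-identical copies can be assigned to the wrong one, so these ratios are uncertain where the copies differ little in sequence.

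The clearest case was psma6. The L copy made up 67.7%, 71.3%, 70.6% and 67.1% of the L and S value at 5 hpf and 84.9%, 92.8%, 88.6% and 90.2% at 9 hpf, without overlap (log2 ratio change 1.83 ± 0.29, SE, adjusted p = 0.000826). The S copy fell, as above, while psma6.L changed by -0.07 ± 0.23 with an interval of -0.56 to 0.41. The ATPase gene psmc6 shifted the same way, from 56.0%, 53.5%, 45.5% and 52.8% of L to 77.1%, 73.3%, 72.7% and 74.1% (1.39 ± 0.32, adjusted p = 0.0124). Its call was lost without replicate 3 of 5 hpf, with an adjusted p of 0.0538.

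Toward S shifted psmb7, psmd12 and psmc3. For psmb7 the L copy went from 48.1%, 50.5%, 55.9% and 59.6% to 33.9%, 42.3%, 31.4% and 37.8% (-1.01 ± 0.20, adjusted p = 0.00403). For psmd12 it went from 34.2%, 39.2%, 35.0% and 40.9% to 24.3%, 30.0%, 25.1% and 27.3% (-0.71 ± 0.14, adjusted p = 0.00403), and both symbols' groups stood apart. While psmd12.L changed by -0.33 ± 0.13, the S copy rose, and the summed value of both copies was 1233 ± 24.9 at 5 hpf and 1373 ± 101 at 9 hpf (SD, n = 4). For psmc3 the ratio changed by -0.56 ± 0.13 (adjusted p = 0.0134), with psmc3.S at -0.03 ± 0.12. The shifts of psmb6 and psma7 toward L had adjusted p of 0.0239 and 0.0384, and each was lost when single libraries were left out, up to an adjusted p of 0.0837 and 0.119. For psmc2, whose copies both fell, the ratio changed by 0.41 ± 0.23 (adjusted p = 0.377). Neither experiment alone gave a called ratio, though all 4 clutches moved the same way in each of the 7.

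**Figure D3:**
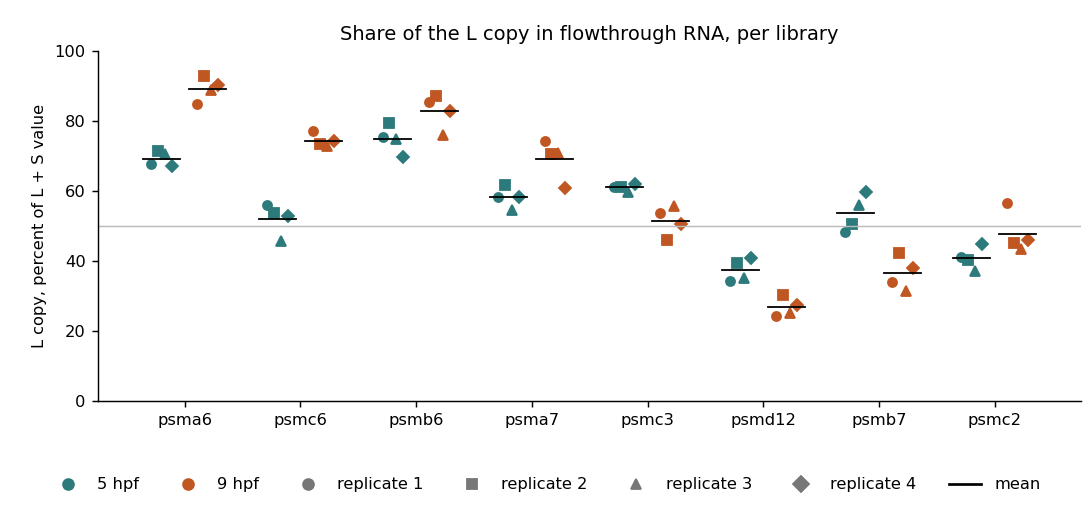
Percent of the summed L and S value that the L copy made up in flowthrough RNA at 5 hpf (teal) and 9 hpf (orange), 1 point per library with the marker giving the clutch and a line at the mean of 4. The share of psma6 moves from 67.1 to 71.3% up to 84.9 to 92.8%, that of psmb7 moves down, and that of psmc2 overlaps.

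Total RNA, which holds new and maternal messages together, showed called falls and no called rise. Of 79 genes tested, 10 were called lower and 0 higher at 9 hpf, while 4.73% of all 21534 genes tested were called lower and 7.32% higher. Under median centring 8 were lower and 3 higher. Quantile normalization moved the median of all genes from 0.04 to -0.07 with 12 lower and 0 higher. Counts over all genes under either normalization are not given here. With the clutch as a term and the eggs left out of the fit, 18 were lower and 4 higher. Over all genes 2664 were lower and 3070 higher in that fit. At an unadjusted p under 0.05 in the main fit there were 22 of the 79, beside 4760 of all 21534 genes. Of the 10, the calls of 8 were shared with the 14 called lower in flowthrough, which is 80% of the total RNA list and 57.1% of the flowthrough list. The same overlap over all genes was not computed. The other 6 of the flowthrough list, psmb3.L, psmb7.L, psmc1.L, psmg1.L, psmc3ip.L and psme3ip1.S, were below 0 in total RNA and not called, and psma4.S and psmg4.S were called in total RNA alone. Of the 7 genes called higher in flowthrough, 6 were above 0 in total RNA and none was called. The remaining gene, psmd12.S, showed no rise in total RNA (-0.004 ± 0.116). The same count over all genes was not computed either. These are different libraries, though replicates 1 and 2 of both come from the same clutches. The 5 hpf libraries came from both experiments and the 9 hpf ones from experiment 1. With the term for experiment, each fitted change is thus that between replicates 1 and 2 of the 2 times. Replicates 3 and 4 of 5 hpf, though printed below, add only to the estimate of the spread. When experiment 1 was fitted alone, 6 genes were called. A fit of only the 2 groups compared called 2.

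Of the 4 ATPase genes called lower in flowthrough 3 were called lower in total RNA, and psmc1.L was not (-0.44 ± 0.20, adjusted p = 0.227). The gene psmc2.S was at 216, 229, 153 and 274 at 5 hpf and at 105 and 87 at 9 hpf (-1.21 ± 0.26, SE, adjusted p = 0.0118), and psmc2.L was at 164, 184, 157 and 249 and then at 88 and 95 (-0.92 ± 0.24, adjusted p = 0.0332). The gene psmc3.L went from 625, 552, 645 and 752 to 374 and 385 (-0.63 ± 0.14, adjusted p = 0.0120). In all 3 the groups stood apart. The lid gene psmd6.L (-0.59 ± 0.15) was the only other 19S gene called, so 4 of 33 were lower, with a median of -0.08.

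In the core only alpha ring genes were called in total RNA: psma6.S, from 42, 75, 59 and 68 to 18 and 23 (-1.42 ± 0.37, adjusted p = 0.0297), psma3.L (-1.34 ± 0.37), psma4.S (-0.91 ± 0.24) and psma1.S (-0.85 ± 0.24). Of 13 beta ring genes none was called, with 2 at an unadjusted p under 0.05, and the difference between the rings was not tested. The alpha ring median was -0.44, the beta ring median -0.11 and that of all genes 0.04. Over both rings the median was -0.26, against -0.08 for the 19S particle. The interval lay within 2-fold for 15 of 27 ring genes, 28 of 33 genes of the 19S particle and 48.6% of all genes. The chaperone psmg3.L went from 17, 39, 32 and 40 to 4 and 6 (-2.18 ± 0.47, adjusted p = 0.0123) and psmg4.S from 30, 44, 46 and 39 to 9 and 11 (-1.77 ± 0.42, adjusted p = 0.0206), both without overlap. The lid gene psmd11.L was at 1097, 1015, 1026 and 1196 and then at 1055 and 1173 (0.08 ± 0.12, interval -0.20 to 0.35). These calls rest on few libraries: 1 remained without replicate 1 of 9 hpf, 2 without replicate 2 of 9 hpf, and 3 were made without replicate 1 or without replicate 2 of 5 hpf.

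Other anchors of total RNA were not called. The groups stood apart for psmb4.L, lower at 9 hpf, and narrowly for psme3.S, higher at 9 hpf. They overlapped for psma7.L and psmd10.S. The changes were 0.03 ± 0.17 for psma7.L, -0.28 ± 0.16 for psmb4.L, -0.12 ± 0.15 for psmd10.S and 0.20 ± 0.13 for psme3.S, and the interval of each lay within 2-fold. The largest changes that were not called were those of the low genes psmg4.L (4, 11, 2 and 3, then 0 and 1), psmc3ip.L (13, 17, 7 and 19, then 5 and 6) and psmd14.L (14, 28, 9 and 22, then 8 and 9). The inducible beta subunit gene psmb8.L stayed near 0, at 4, 2, 3 and 5 and then at 4 and 8.

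Between egg and 5 hpf no proteasome gene was called in either direction. An unadjusted limma p under 0.05 was found for 12 of 79, beside 2794 of all 21534 genes. Over all genes 0.339% were called higher and 0.409% lower at 5 hpf. The eggs came from experiment 2 alone. Given the term for experiment, each fitted change is thus that between the eggs and the 5 hpf libraries of experiment 2. The other 5 hpf libraries, though printed below, add only to the estimate of the spread. At 5 hpf the changes of the comparison above rest on those other libraries, and both comparisons come from the same fit. Of the 27 ring genes of the core 24 were below 0, with a median of -0.46, and of 33 genes of the 19S particle 19 were, with a median of -0.03, which was also the median of all genes. Among all genes 11676 of 21534 were below 0. The 95% interval lay within 2-fold for 11 of the 27 and 27 of the 33, against 50.2% of all genes.

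The lowest unadjusted p belonged to a gene of the 19S lid. The gene psmd14 encodes the enzyme that cuts ubiquitin chains off the substrate. Its S copy was at 196 and 173 in eggs and at 55, 70, 63 and 59 at 5 hpf (-1.58 ± 0.36, SE, adjusted p = 0.0885), and its L copy at 84 and 94 and then at 14, 28, 9 and 22 (-2.57 ± 0.75, adjusted p = 0.172). The ATPase gene psmc2.L was at 413 and 415 and then at 164, 184, 157 and 249 (-1.06 ± 0.24, adjusted p = 0.0911), and psmc2.S at 407 and 353 and then at 216, 229, 153 and 274 (-0.88 ± 0.26, adjusted p = 0.173). In these 4 genes every embryo library lay below both eggs. The gene psma6.S did as well, at 143 and 154 and then at 42, 75, 59 and 68 (-1.22 ± 0.37, adjusted p = 0.183). None of these genes was called, and the share of all genes separated in this way was not computed.

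The abundant genes of each role differed less. The gene psmd11.L was at 1046 and 1033 in eggs, within the range of the embryos, and psmb4.L was at 999 and 1190 against 705, 845, 844 and 1020, which overlapped. The eggs held 11 and 96 of psmb8.L, the inducible beta subunit that replaces a cutting subunit in immune cells, against 2 to 5 at 5 hpf (-2.80 ± 1.08, adjusted p = 0.296). The 2 eggs differed widely, and the summed value of 14 blood markers was 160 to 196 in eggs and 125 to 135 at 5 hpf. The part of blood cells in that value was not tested.

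**Figure D4:**
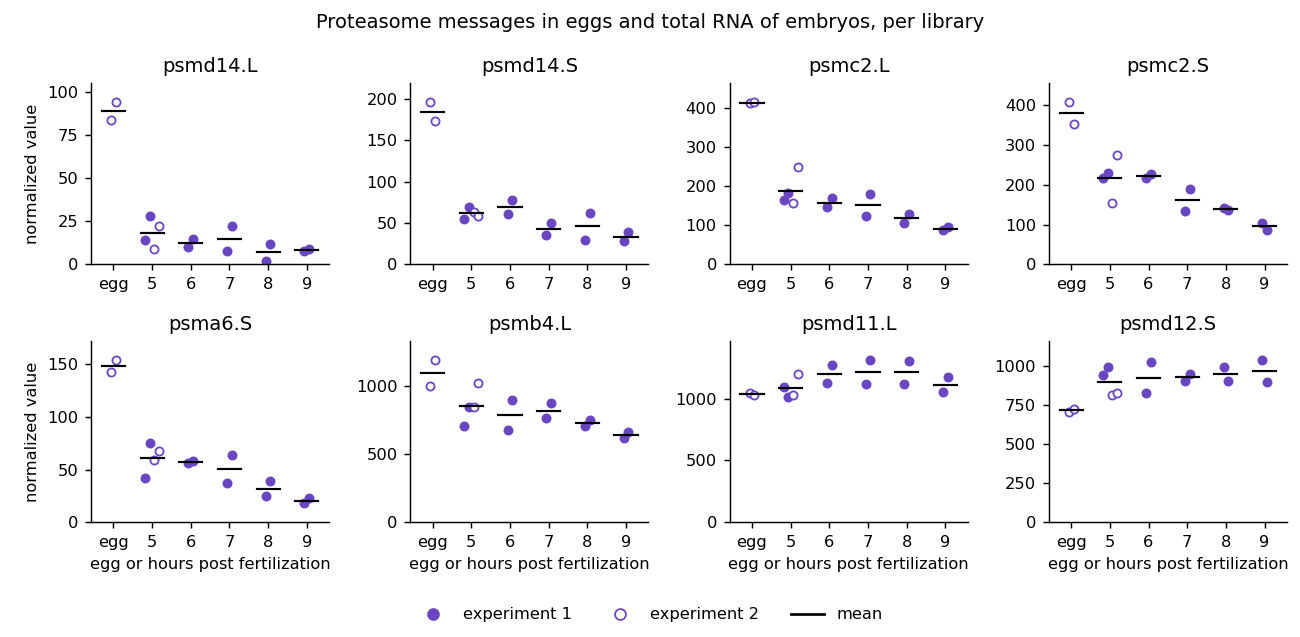
Normalized value of 8 proteasome genes in eggs and in total RNA of embryos at 5 to 9 hpf, 1 point per library, filled for experiment 1 and open for experiment 2, with a line at the mean of each group. The copies of psmd14 and psmc2 and psma6.S are lower at 5 hpf than in both eggs, though none was called, while psmd11.L stays level.

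In bead RNA, the fraction enriched for new RNA, the 2 experiments differed and few changes could be bounded. Of 76 genes tested in bead RNA, limma called 0 between 5 and 9 hpf, while 6.51% of all 20703 genes tested were called higher and 1.67% lower. An unadjusted p under 0.05 was found for 18 of the 76 and for 4571 of all genes. The interval was narrow for few: it lay within 2-fold for 2 of the 76, or 2.63%, against 11.3% of all genes, so changes of 2-fold were mostly not detectable here. No label names a capture from embryos without EU, so the amount of unlabelled RNA held by the beads is unknown. The median change was -0.12 in experiment 1 and -1.99 in experiment 2 over the 77 genes tested in flowthrough. Over all 20703 genes tested in bead RNA these medians were -0.01 and -0.54. In experiment 2 the 9 hpf bead libraries listed 31 and 43 of the 77 at 0, against 4 and 21 at 5 hpf and 1 and 2 at 9 hpf in experiment 1. Of all genes, 14663 and 12814 were above 0 in these 9 hpf libraries of experiment 2, against 18990 and 15751 at 5 hpf.

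Fitted alone, experiment 1 gave 3 calls, 1 higher and 2 lower, and counts over all genes in that fit are not given here. The higher one was psmd11.L (0.55, adjusted p = 0.0196). One of those lower was psmc3.L, at 369 and 454 and then at 248 and 196 on the beads (-0.89, adjusted p = 0.0317). For psmc2.S the value went from 162 and 217 to 66 and 94 (-1.24, adjusted p = 0.0574) in experiment 1 and from 300 and 218 to 6 and 0 in experiment 2. The largest change over both experiments was that of psma3.L, at 129, 215, 179 and 171 and then at 95, 131, 0 and 0 (-4.02 ± 1.31, adjusted p = 0.0641). The alpha ring gene psma7.L went from 136 and 168 to 641 and 534 in experiment 2 and from 156 and 185 to 209 and 242 in experiment 1. Every 9 hpf bead library thus lay above those of 5 hpf for psma7.L, which was not called. The sum over all genes rose as well, from 8175480 and 8766814 to 11545777 and 15200969 in experiment 2. In experiment 1 it went from 7422802 and 7441157 to 8806052 and 8590580.

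Set against flowthrough at 9 hpf, bead values were lower for 32 genes and higher for 3 of 77, while 21.4% of all 21544 genes were called lower and 12.1% higher. The median was -1.65, against -0.69 over all genes, and these medians moved to -0.78 and -0.28 under quantile normalization. The difference was larger in experiment 2, where 66 of 77 genes lay below 0 with a median of -3.23, and 24 were listed at 0 in both bead libraries. No value over all genes within experiment 2 stands beside these. In experiment 1 50 lay below 0 with a median of -0.17, and 5 were called, 3 lower and 2 higher, beside 391 lower and 2301 higher over all genes.

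The lid gene psmd8.S had the smallest adjusted p. It was at 572 and 465 on the beads and at 693 and 768 in flowthrough of experiment 1, and at 2 and 15 against 582 and 668 in experiment 2 (-3.50 ± 0.63, SE, adjusted p = 7.19e-05). It was lower within both experiments, by -0.50 (adjusted p = 0.0462) and -6.49 (adjusted p = 0.000177). The scaffold gene psmd2.L was at 398, 285, 102 and 50 on the beads and at 430, 472, 417 and 447 in flowthrough, again lower in every clutch (2.82-fold, adjusted p = 0.000442, or 0.123 in experiment 1 alone). The ATPase psmc4.L was at 157, 151, 19 and 0 against 205, 187, 159 and 192 (-2.82 ± 0.73, adjusted p = 0.00393, or 0.404 in experiment 1 alone).

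The other genes lower on the beads with the smallest adjusted p were the alpha ring genes psma2.S, psma2.L, psma5.L and psma6.L and the ATPase genes psmc2.L and psmc4.S. In experiment 1 psma2.S had values of 145 and 192 in bead RNA against 235 and 212 in flowthrough, and in experiment 2 it was listed at 0 in both bead libraries, with 196 and 186 in flowthrough. Fitted within experiment 1, none of the 6 was called, and their changes ran from -0.22 for psma2.L to -0.43 for psma6.L. Those not called with the largest differences were the ATPase gene psmc3.S (adjusted p = 0.0720) and the beta ring genes psmb1.S (0.0514) and psmb5.L (0.0981).

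Of the genes higher on the beads, the lid gene psmd7.L, whose product pairs with that of psmd14, was higher in all 4 clutches, at 224, 246, 580 and 1577 against 203, 216, 191 and 255 (1.14 ± 0.31, adjusted p = 0.00565). The groups overlapped. The lid gene psmd12.S was at 684, 748, 3095 and 3062 against 998, 881, 1081 and 1069, so it was lower in experiment 1 and higher in experiment 2. The partner gene psme3ip1.S was at 282, 465, 1687 and 1973 against 344, 453, 374 and 492. Summed over all genes, the 9 hpf bead libraries of experiment 2 held 11545777 and 15200969, against 7983988 and 8090104 in flowthrough. In experiment 1 these sums were 8806052 and 8590580 against 7626391 and 7765802. The part of the larger bead sums in these higher values was not tested. The change in bead RNA minus that in flowthrough was called for 0 of 77 genes, while 5.06% of all genes were called. At an unadjusted p under 0.05 there were 11 of the 77, beside 3708 of all 21544 genes. Experiment 2 alone gave 2 calls of this difference, both lower, 1 of them psmd10.L, with no count over all genes beside them. At 5 hpf 2 of 77 were lower on the beads, psma5.L and psmc4.S, against 1.79% of all genes lower and 1.63% higher. In bead RNA psma5.L was at 26, 19, 0 and 0, and at 16, 20, 27 and 36 in flowthrough (-2.35 ± 0.66, adjusted p = 0.0396), so it lay below flowthrough in 3 of 4 clutches. The gene psmc4.S was at 31, 65, 5 and 0 against 62, 64, 68 and 48 (-2.52 ± 0.73, adjusted p = 0.0470), also in 3 of 4. With no filter, with quantile normalization or with no experiment term 0 genes were called, and leaving out single libraries gave 0 to 6, with adjusted p up to 0.156 for psma5.L and 0.196 for psmc4.S. In experiment 1 alone neither was called, and psma5.L was at 0.30.

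**Figure D5:**
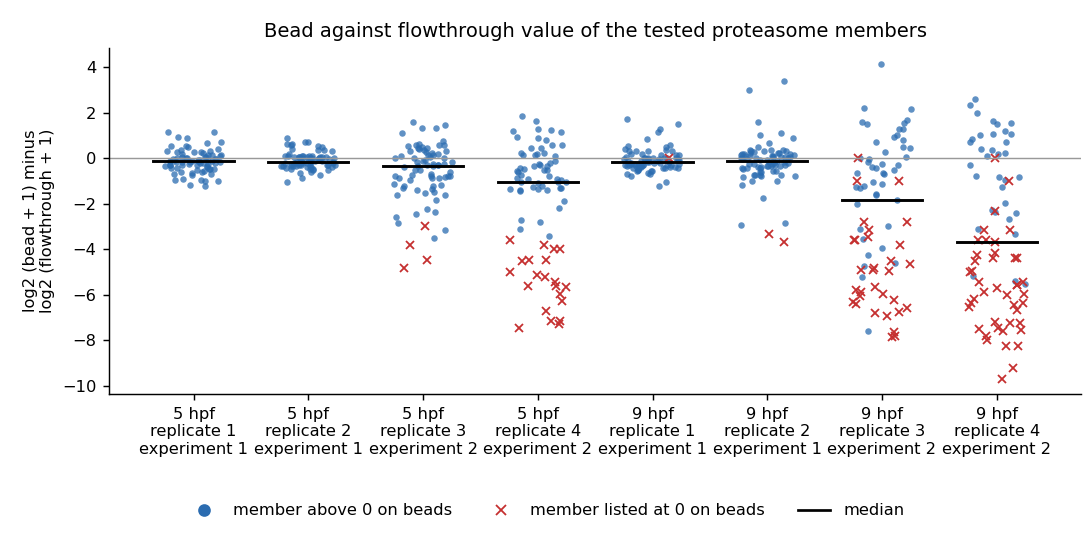
Log2 of the bead value + 1 minus log2 of the flowthrough value + 1 for the 77 tested genes, 1 point per gene and 1 column per clutch and time, with crosses for genes listed at 0 on the beads and a line at the median. In experiment 1 at 9 hpf the median over both clutches is -0.17 with 5 genes more than 2-fold lower, while the 9 hpf columns of experiment 2 hold 31 and 43 crosses.

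Other genes of the ubiquitin and proteasome route moved in both directions. Of 77 tested in flowthrough 8 were called lower and 7 higher, with a median of 0.03, beside the 12.9% lower and 6.32% higher over all genes. The gene zfand5.S, whose product binds the proteasome and raises its activity, was at 433, 452, 499 and 445 at 5 hpf and at 167, 162, 205 and 194 at 9 hpf (-1.33 ± 0.10, SE, adjusted p = 1.47e-08), and its L copy at 501, 543, 515 and 584 and then at 276, 367, 253 and 325 (-0.82 ± 0.15, adjusted p = 0.000651). The related gene zfand2a.L fell from 178, 174, 189 and 206 to 54, 101, 63 and 101 (-1.27 ± 0.18, adjusted p = 5.97e-05), and uchl5.S, a ubiquitin-cutting enzyme of the 19S particle, from 296, 208, 283 and 244 to 199, 162, 144 and 161 (-0.62 ± 0.13, adjusted p = 0.00207). None of these groups overlapped.

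In total RNA 5 of the 77 were lower and 1 higher, beside 4.73% and 7.32% of all genes. Those with the smallest adjusted p were zfand5.S (369, 380, 343 and 327, then 125 and 157), zfand2a.L (-1.25 ± 0.22), the stress-response factor nfe2l2.S (-0.89 ± 0.21) and, as the 1 higher, the polyubiquitin gene ubc.L, from 1825, 2038, 2027 and 1846 to 2513 and 2600 (0.41 ± 0.09, adjusted p = 0.0151). On the beads 3 were higher and 0 lower between 5 and 9 hpf, with 13 at an unadjusted p under 0.05, and all 3 were polyubiquitin genes. Over all 20703 genes 6.51% were called higher on the beads and 1.67% lower, and 4571 had an unadjusted p under 0.05. The gene ubb.L rose from 886, 647, 527 and 782 to 3607, 2722, 5823 and 4878 (2.55 ± 0.33, adjusted p = 1.06e-05), ubb.S from 645, 457, 222 and 145 to 1577, 1173, 936 and 761 (1.78 ± 0.37, adjusted p = 0.00287), and ubc.L from 1334, 1495, 1587 and 1538 to 2764, 2372, 2701 and 2085 (0.73 ± 0.23, adjusted p = 0.0486). In flowthrough ubb.L was at 1423, 937, 1441 and 1204 and then at 1423, 972, 1780 and 1221, which overlapped.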

How the data were processed

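The authors deposited 1 table of 50489 genes by 54 libraries (20 bead, 20 flowthrough, 12 total RNA, 2 egg). The deposited values are treated as a score: they were normalized with DESeq2 and rounded to whole numbers by the authors. The submitters' processing notes name DESeq2 and Salmon 0.12.0. Build and annotation: not given in the sources used here. Reads per library cannot be read from such values, so depth is unknown and no counting interval was computed. A further 1 column, which matches no labelled library, was left out. Since these are no longer counts, a count test was left out.

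From these values log2(value + 1) was fitted with limma-trend (limma 3.58.1, statmod 1.5.0, R 4.3.3; trended, robust empirical Bayes) over genes that reached 10 in a number of libraries no smaller than that of the smallest group. All groups of a fraction entered 1 fit, with a term for experiment, and the eggs entered that of total RNA. Comparisons of bead with flowthrough RNA used 1 fit of both fractions, with a further term for experiment by fraction. A difference between the fractions is thus the mean over both experiments, also where these differ widely. P-values were adjusted by Benjamini-Hochberg across every gene tested, and a gene was called at an adjusted p under 0.05. A change is on the log2(value + 1) scale, where low genes appear to change less than they do, and errors of changes are standard errors. Without gene lengths, levels were not compared between genes. The L to S ratio was fitted as the difference of the 2 log values over all pairs of copies. The scripts were tested on simulated data with independent libraries and a small difference between experiments. Those data had no shared clutch, so the test covers neither the pairing nor the many zeros of bead RNA in experiment 2. Plots used matplotlib 3.10.9 under Python 3.11.15. P-values of the main fits measure the spread of libraries left after the terms for group and experiment, and for experiment by fraction where both fractions were fitted. Libraries of the same clutch at different times entered as separate, so the pairing was used only with the clutch as a term.

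Named were, per comparison, up to 10 called genes with the smallest adjusted p, the 3 largest changes not called, and the gene of each role with the highest mean in total RNA at 5 hpf, and of the other pathway genes up to 4 called. Genes named elsewhere in the text outside that rule were chosen after their values were seen. The genes, lists and tests were chosen with earlier results of these data known.

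Replicate numbers pair the libraries: the design text gives clutches, and the difference between the 2 clutches of an experiment correlated across 13902 genes between times with r of 0.766 to 0.878 for flowthrough, of 0.795 to 0.871 for total RNA, and for bead RNA of 0.686 to 0.800 in experiment 1 but 0.0769 to 0.177 in experiment 2. Alternatives covered the pseudocount, the filter, quantile normalization, median centring, library weights, the samples in the fit, the experiment, the clutch as a term and each library left out.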

Additional observations from a re-analysis of the deposited data

Results flagged for a closer look

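In flowthrough RNA at 9 hpf psmg3.L was at 1 in replicate 3 and listed at 0 in the other 3 libraries. In bead RNA at 9 hpf psmg4.S was at 4 in replicate 1 and listed at 0 in the other 3. In both, the gap between 1 library and the others made up the group's whole range. Any value above 0 gives this when the other 3 are listed at 0, so the mark does not show a far library. Of 109 groups of 4 libraries examined these 2 were marked. The usual rate of about 1 in 20 by chance does not hold for such tied values.

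The change from 5 to 9 hpf differed between bead and flowthrough RNA for the polyubiquitin genes ubb.L, by 2.46 on the log2 scale (limma interaction, adjusted p = 5.41e-05), and ubb.S, by 1.98 (adjusted p = 0.000360).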

How the results depend on the processing

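With the replicate block, which takes the clutch as a term, the calls rose from 21 to 36 in flowthrough and from 10 to 22 in total RNA. They were 37 against 35 for bead against flowthrough at 9 hpf, and 8 against 7 for the copy ratio. In total RNA that fit also left out the eggs, so the part of each change was not separated. No paired analysis was possible for the eggs because the eggs and the embryos of their experiment share no replicate number, and no label ties an egg clutch to an embryo clutch. In a fit of only the groups compared the calls were 12 in flowthrough, 2 in total RNA, 1 for bead against flowthrough at 5 hpf and 2 for the copy ratio. Experiment 1 alone gave 2 in flowthrough, 6 in total RNA, 3 in bead RNA over time, 5 and 0 for bead against flowthrough at 9 and 5 hpf, and 0 for the ratio. Experiment 2 alone gave 2 in flowthrough, 4 for bead against flowthrough at 5 hpf, 2 for the difference of changes and 0 for the ratio. For bead RNA over time a pseudocount of 5 gave 1 call, quantile normalization 3 and library weights 7, against 0. For bead against flowthrough at 5 hpf, against 2 calls, a pseudocount of 5 and median centring gave 1 each, no filter, quantile normalization and no experiment term 0 each, and library weights 29. For the difference of changes quantile normalization and library weights gave 1 each. Without an experiment term bead against flowthrough at 9 hpf gave 9 calls. The cause was not tested in any of these, other than that single experiments and smaller fits hold fewer libraries.

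Leaving out 1 library at a time gave 17 to 21 calls in flowthrough, 1 to 10 in total RNA, 0 between egg and 5 hpf, 0 to 3 in bead RNA, 23 to 37 and 0 to 6 for bead against flowthrough at 9 and 5 hpf, 0 to 4 for the difference of changes and 5 to 6 for the ratio. In bead RNA 3 calls appeared without replicate 1 or 2 of 9 hpf and 1 without replicate 3. The 23 at 9 hpf came without replicate 4 of either fraction.

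Signs reversed in experiment 1 alone for psmd11.L in bead RNA over time (0.55), for psme3ip1.S (-0.12) and psmb4.L (0.14) on beads against flowthrough at 9 hpf, and for psma5.L at 5 hpf (0.30). The median of all genes moved by over 0.1 under quantile normalization also in bead RNA over time (-0.33 to -0.22) and for bead against flowthrough at 5 hpf (-0.28 to 0.01). Rounded normalized values and bead libraries of experiment 2 with many genes listed at 0 limit what the bead comparisons can show.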
